A study of Mus musculus with 10 samples.

Results

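The keratins described here are 8 genes, Krt5, Krt14, Krt15, Krt17, Krt8, Krt18, Krt19 and Krt7, out of 18193 genes measured on the arrays. They were taken by name: a probe set counted for a keratin when the platform annotation gave that gene symbol and no other. The 8 genes had 13 such probe sets, and for each gene the brightest of them on average stands for the gene, the others serving as a check. A further probe set that names both Krt17 and Krt14 was not used. All 8 genes were measured, and 6 of them had a mean log2 intensity above 2.

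The denervated group consisted of 5 arrays of lower incisor dental mesenchyme from wild-type C57BL/6J mice at postnatal day 60, taken 2 weeks after the inferior alveolar nerve had been resected on that side. The contralateral group consisted of 5 arrays of the opposite lower incisor, whose nerve was left in place, at the same age. Both groups therefore came from operated animals, and sham-operated animals are not analysed here; the labels leave the sex of the mice undetermined. The dental mesenchyme is the pulp inside the incisor, with its odontoblasts, fibroblasts, vessels and nerve endings. Equal array numbers are treated as the 2 incisors of 1 mouse, for the reasons given with the processing, so that mouse 1 stands for denervated array 1 and contralateral array 1. All values are log2 intensities, all differences are denervated minus contralateral, and the smallest and largest array medians were 1.48 and 1.54. Levels of different probe sets are not comparable with each other, so only differences are set side by side between genes.

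Keratins are the intermediate filament proteins of epithelial cells. A filament is built from pairs of a type I and a type II keratin, so that partners are usually made together. Krt5 (type II) and Krt14 (type I) are partners in the basal cells of stratified epithelia, and Krt14 promoters are widely used to drive transgenes in dental epithelium. Krt15 and Krt17 are further type I keratins of basal cells and skin appendages. Krt8 and Krt7 (type II) and Krt18 and Krt19 (type I) are keratins of simple epithelia, where Krt8 pairs with Krt18. The epithelium of the continuously growing mouse incisor forms enamel on the outer face of the tooth and descends from a stem cell niche at its base. Odontoblasts and pulp fibroblasts are mesenchymal and rely on vimentin filaments.

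Transcripts of dental epithelium were measured in this tissue labelled as mesenchyme. Of 18 epithelial markers, 17 were measured and 15 had a mean above 2, as 10780 of all 18193 genes did. The adhesion gene Cdh1 averaged 8.83 ± 0.81 in denervated and 9.26 ± 0.14 in contralateral incisors (SD, n = 5 each). Epcam, which encodes an epithelial surface protein, averaged 7.01 ± 0.27 in denervated and 7.21 ± 0.24 in contralateral incisors. Among mesenchymal genes, the vimentin gene Vim averaged 12.004 ± 0.12 in denervated and 11.99 ± 0.11 in contralateral incisors. Of the 18 markers of cornifying oral or skin epithelium, 13 had a mean of 2 or below. Krt13, a keratin of non-cornified oral lining, averaged 0.63 ± 0.06 in denervated and 0.63 ± 0.05 in contralateral incisors, and Krt1, of cornifying epidermis, 0.87 ± 0.09 in denervated and 0.90 ± 0.13 in contralateral incisors. The other 5 had a mean above 2, among them Krt10, a keratin of cornifying epidermis, at 4.78 ± 0.07 in denervated and 4.67 ± 0.21 in contralateral incisors.

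An array stood apart in the values of the basal-type keratins, and it was singled out after those values were seen. Denervated array 3 was the lowest of the 10 arrays for all 4 basal-type keratins (Krt5, Krt14, Krt15 and Krt17), for 12 of 17 dental epithelium markers and for 16 of 17 genes of keratin-binding junction proteins. Over all genes, 10.2% had their lowest value on this array. Krt8 was also lowest there. The group differences of the keratins and of the named list genes are therefore given with and without this array. These are bulk samples, in which fewer epithelial cells and less keratin RNA per cell cannot be told apart.

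Krt5 and Krt14, the basal pair, had nearly constant levels on 9 of the 10 arrays. Krt5 had 9.05, 9.07, 7.27, 9.09 and 9.04 in denervated incisors 1 to 5, against 8.96, 9.21, 8.89, 9.02 and 9.12 in contralateral incisors 1 to 5. Denervated incisor 3 was low and the other denervated incisors lay inside the contralateral range, so that the groups overlapped. Krt14 had 8.95, 8.98, 6.83, 9.12 and 8.86 in denervated incisors, against 8.95, 9.17, 8.94, 8.97 and 9.18 in contralateral incisors. Again 1 denervated incisor was low, and denervated incisor 5 was just under the lowest contralateral value. The standard deviation of Krt5 was 0.80 over the 5 denervated incisors, 0.02 without incisor 3, and 0.13 over the contralateral incisors. For Krt14 these values were 0.97, 0.11 and 0.12. The median standard deviation of genes with a mean above 2 was 0.20, 0.19 and 0.17 in the same order.

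The other basal-type keratins gave the same picture for denervated incisor 3, with more spread among the rest in Krt15. Krt17 had 8.42, 8.02, 5.88, 8.23 and 8.30 in denervated incisors, against 8.24, 8.29, 8.29, 8.10 and 8.37 in contralateral incisors. Krt17 is a keratin of skin appendages that is also induced in wounded epidermis; denervated incisor 3 was the low one, and the groups overlapped. Krt15, a basal keratin known from hair follicle stem cells, had 3.98, 3.78, 1.51, 4.47 and 4.38 in denervated incisors, against 3.63, 3.79, 3.55, 3.78 and 5.38 in contralateral incisors. Here 2 incisors stood out, denervated incisor 3 at the low end of the scale and contralateral incisor 5 above all others.

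**Figure D1:**
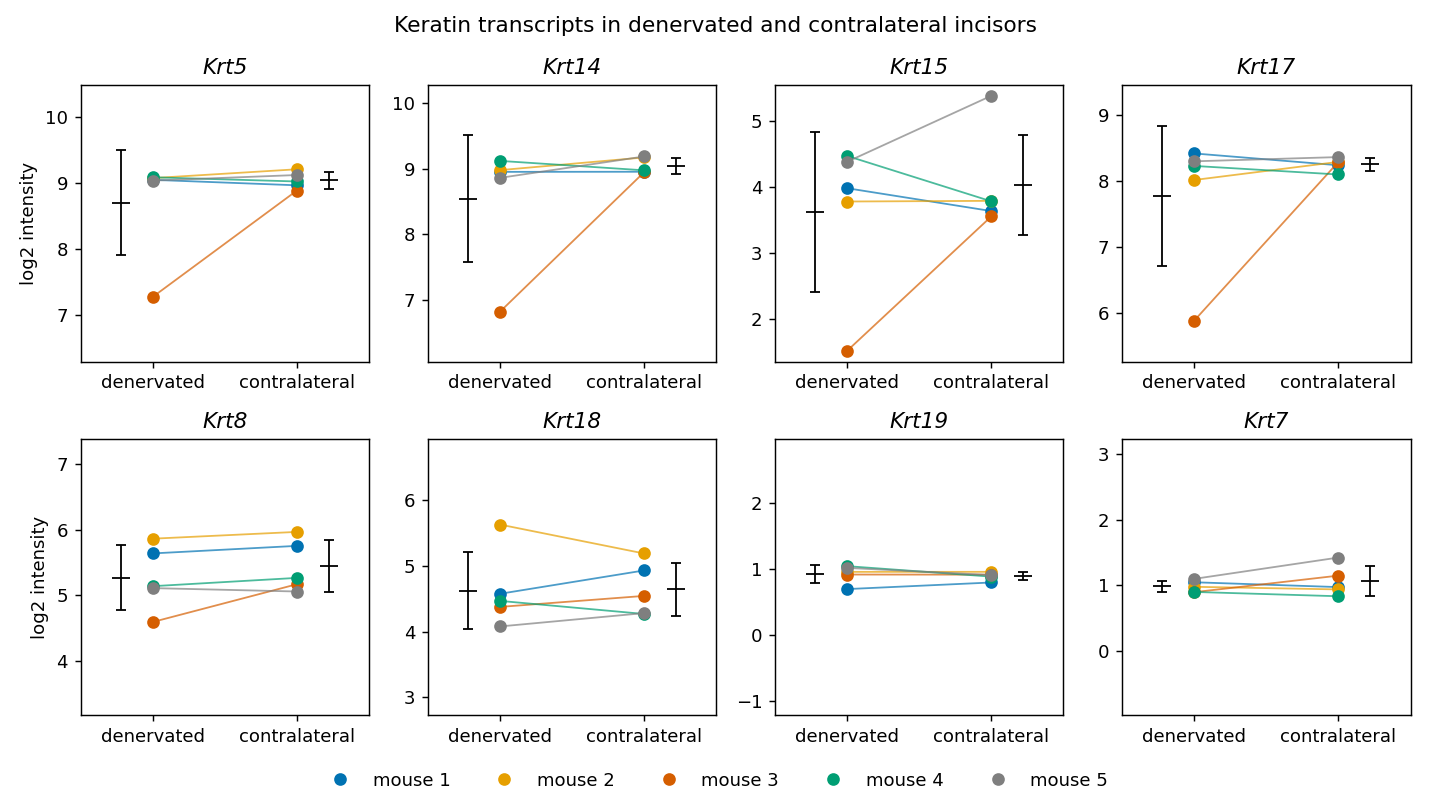
Log2 intensity of the 8 keratin genes, 1 panel each with an axis span of 4.2 log2 units, for denervated incisors (left) and contralateral incisors (right); lines join the incisors of 1 mouse, and the black bars are mean and SD (n = 5). The denervated incisor of mouse 3 lies low in Krt5, Krt14, Krt15 and Krt17, with values of 7.27, 6.83, 1.51 and 5.88, and lies near its contralateral value in Krt18 and Krt19.

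The simple-type pair behaved differently, varying between mice more than between sides. Krt8 had 5.64, 5.86, 4.60, 5.14 and 5.11 in denervated incisors, against 5.75, 5.96, 5.17, 5.27 and 5.06 in contralateral incisors. Mice 1 and 2 were higher than the other mice on both sides, and denervated incisor 3 was lowest. Krt18, its partner, had 4.57, 5.62, 4.37, 4.47 and 4.08 in denervated incisors, against 4.93, 5.18, 4.54, 4.27 and 4.28 in contralateral incisors. Mouse 2 was highest on both sides, and denervated incisor 3 was not the lowest of its group. Krt19 and Krt7 lay below the median gene of their array on all 10 arrays, and nothing in the files tells such values from background. Krt19 ranged over 0.69 to 1.04 in denervated and 0.79 to 0.95 in contralateral incisors, and Krt7 over 0.90 to 1.10 in denervated and 0.84 to 1.42 in contralateral incisors.

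Within mice, the basal-type keratins differed by over 1 log2 unit in mouse 3 and, for Krt15 alone, in mouse 5. In mouse 3 the difference was -1.61 for Krt5, -2.12 for Krt14, -2.04 for Krt15 and -2.41 for Krt17, or 3.06-fold lower for Krt5, 4.34-fold for Krt14 and 5.30-fold for Krt17 on the linear scale. Krt15 was at 1.51 in that incisor, within the range of the array medians, so the size of its difference cannot be read as a fold. In the same mouse Krt8 differed by -0.57 and Krt18 by -0.17. Of all genes 1.13% had a difference of -1 or below in mouse 3, and 4 of the 8 keratins did, all of the basal type. Among genes with a mean above 2 the share was 1.86%, and 4 of 6 keratins. Ranked from the lowest, Krt17 was number 38, Krt5 number 87, Krt8 number 529 and Krt18 number 3493 of 18193 genes in this mouse. In mice 1, 2, 4 and 5 the differences of Krt5 lay between -0.13 and 0.08, those of Krt14 between -0.32 and 0.14 and those of Krt17 between -0.28 and 0.18. Krt15 covered a wider range, with 0.35, -0.01 and 0.69 in mice 1, 2 and 4 and -1.001 in mouse 5. A difference of -1 or below was found in 0.066%, 0.874%, 0.033% and 0.137% of all genes in mice 1, 2, 4 and 5, and among the keratins Krt15 in mouse 5 was the one such value outside mouse 3. No keratin had a difference of 1 or above in any mouse, as 0.022%, 1.77%, 1.52%, 0.132% and 0.275% of all genes did in mice 1 to 5. Mouse 3 was singled out after its values were seen, and these values are given without a test.

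**Figure D2:**
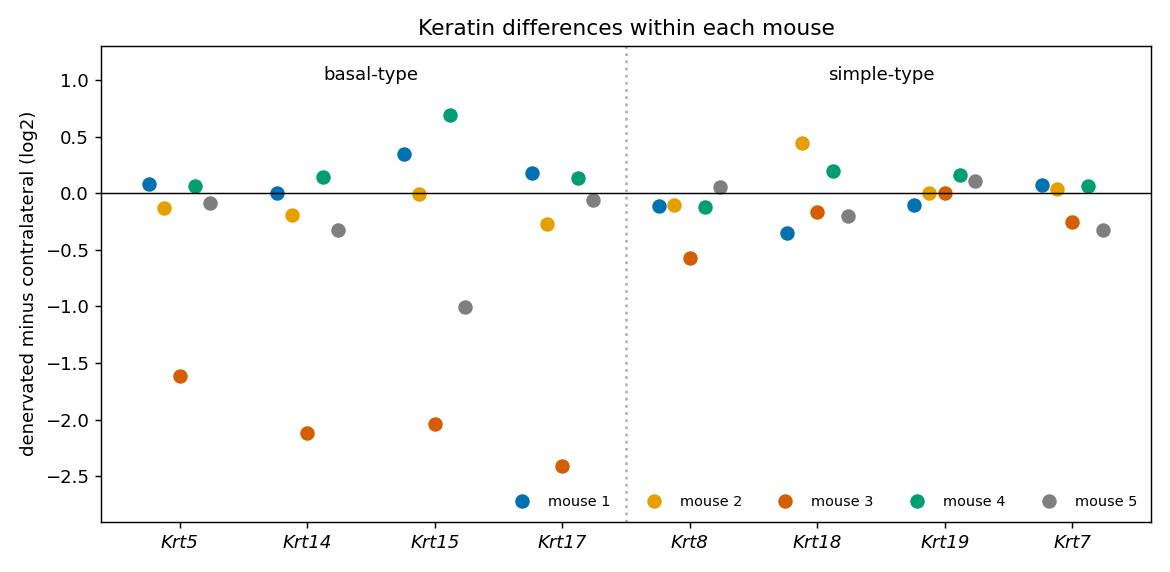
Denervated minus contralateral difference (log2) of each keratin in each of the 5 mice; the dotted line parts basal-type from simple-type keratins. Mouse 3 lies between -2.41 and -1.61 for the basal type, and the other mice lie between -1.001 (Krt15 in mouse 5) and 0.69 (Krt15 in mouse 4).

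Over all 5 mice no keratin differed between denervated and contralateral incisors beyond the spread. By limma's moderated test with Benjamini-Hochberg adjustment over 18193 genes, 0 of the 8 keratins passed an adjusted p of 0.05, as did 0% of all genes (smallest adjusted p 0.790). At an unadjusted p under 0.05, 0 of the 8 keratins and 6.21% of all genes would be counted, and with the mouse as a block 0 keratins and 9.92% of all genes. In the lower direction alone these were 0 keratins and 2.11% of all genes, and without denervated array 3 in either direction 0 keratins and 5.33% of all genes. The mean was lower in denervated incisors for 7 of 8 keratins, against 44.2% of all genes, and the median difference over the 8 was -0.26, against 0.02 over all genes. Without denervated array 3 the mean was lower for 4 of 8 keratins, against 45.5% of all genes, and the median was 0.01. Leaving out both arrays of mouse 3, a choice made after seeing the data, gave 5 of 8 and a median of -0.01. By the chosen probe sets none of the 8 keratins was lower in all 5 mice, as 3.8% of all genes were. None was higher in all 5, as 6.58% of all genes were. Another Krt8 probe set, whose name ending marks probes that may match related transcripts, was lower in all 5. For 0 of the 8 keratins did the groups part without overlap, as they did for 0.423% of all genes with the denervated group lower and for 0.528% with it higher.

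The intervals show what these arrays can and cannot resolve. Krt14 averaged 8.55 ± 0.97 in denervated and 9.04 ± 0.12 in contralateral incisors (SD, n = 5 each), a difference of -0.50 with a 95% confidence interval of -1.32 to 0.32 (limma, adjusted p 0.818). Without denervated array 3 the difference was -0.07, with an interval of -0.26 to 0.12. Krt5 differed by -0.34 (-1.02 to 0.35, limma adjusted p 0.839), and by 0.02 (-0.15 to 0.20) without that array. For Krt17 the difference was -0.49 (-1.39 to 0.41), or -0.02 (-0.22 to 0.19) without it, and for Krt15 it was -0.40 (-1.61 to 0.80), or 0.13 (-0.64 to 0.89). Leaving out contralateral array 5, where Krt15 was highest, in place of denervated array 3 gave -0.06 for Krt15. The simple-type pair had -0.17 (-0.71 to 0.37) for Krt8 and -0.02 (-0.62 to 0.59) for Krt18 on 10 arrays, and -0.00499 (-0.49 to 0.48) and 0.04 (-0.62 to 0.71) without denervated array 3. With the mouse as a block the standard error of Krt8 was 0.10 in place of 0.25 and that of Krt18 was 0.12 in place of 0.28, whereas for Krt17 it was 0.35 in place of 0.41. The blocked interval was -0.40 to 0.05 for Krt8 and -0.30 to 0.26 for Krt18.

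**Figure D3:**
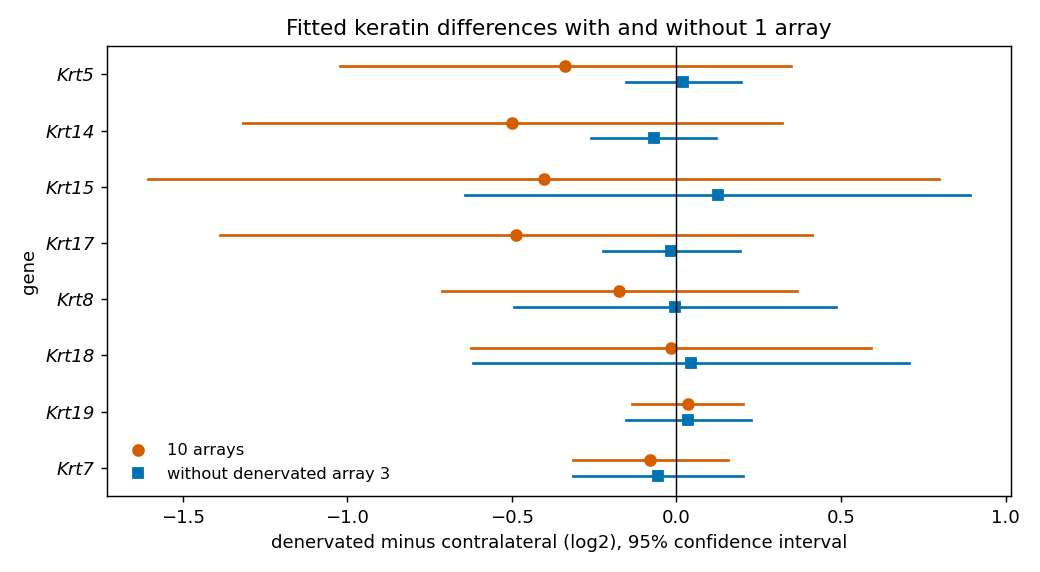
Fitted denervated minus contralateral difference (log2) with its 95% confidence interval from limma for each keratin, with 10 arrays (circles) and without denervated array 3 (squares). Krt14 moves to -0.07 from -0.50 when that array is left out, and each interval shown contains 0.

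Other probe sets of the same genes were read as a check. A second Krt14 probe set gave -2.22 in mouse 3 and between -0.43 and 0.42 in the other mice, close to the one used, whose name ending marks probes that may match related transcripts. The third Krt14 probe set had a mean of 1.22, near the low end, and gave -0.43 in mouse 3. The second Krt17 probe set had a mean of 2.19 and gave -0.71 in mouse 3 and -0.68 in mouse 2. For Krt8 the other probe sets gave -0.46 and -0.51 in mouse 3, against -0.57 for the one used. The first of these was lower in all 5 mice, with -0.20, -0.48, -0.46, -0.02 and -0.18 in mice 1 to 5. The second was higher in mouse 4, by 0.15. The Krt8 probe set used and the first of the others have the same name ending as the Krt14 probe set used. Each of the 5 probe sets outside the chosen ones had a lower mean in denervated incisors over 10 arrays, by 0.04 to 0.51 on the log2 scale, without a test. When denervated array 3 was left out, the other Krt14 probe sets differed by -0.04 and 0.07, the second Krt17 probe set by 0.03 and the other Krt8 probe sets by -0.16 and -0.09.

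The keratins of each partner pair varied together with and without the low array. Over 10 arrays Krt5 and Krt14 had a Pearson correlation of 0.99 and Krt14 and Krt17 of 0.98, with denervated array 3 alone at the low end of both. Without it (n = 9 arrays) the correlation was 0.71 for Krt5 and Krt14 and 0.16 for Krt14 and Krt17. Spearman's correlation over 10 arrays was 0.85 for the first pair and 0.18 for the second. Krt8 and Krt18 had 0.79 over 10 arrays, 0.87 without denervated array 3, and a Spearman correlation of 0.79. Between the types, Krt8 and Krt14 had 0.62 over 10 arrays and 0.05 without that array. These values describe 5 mice with 2 incisors each, so the arrays are not independent, and all values share the array normalization.

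**Figure D4:**
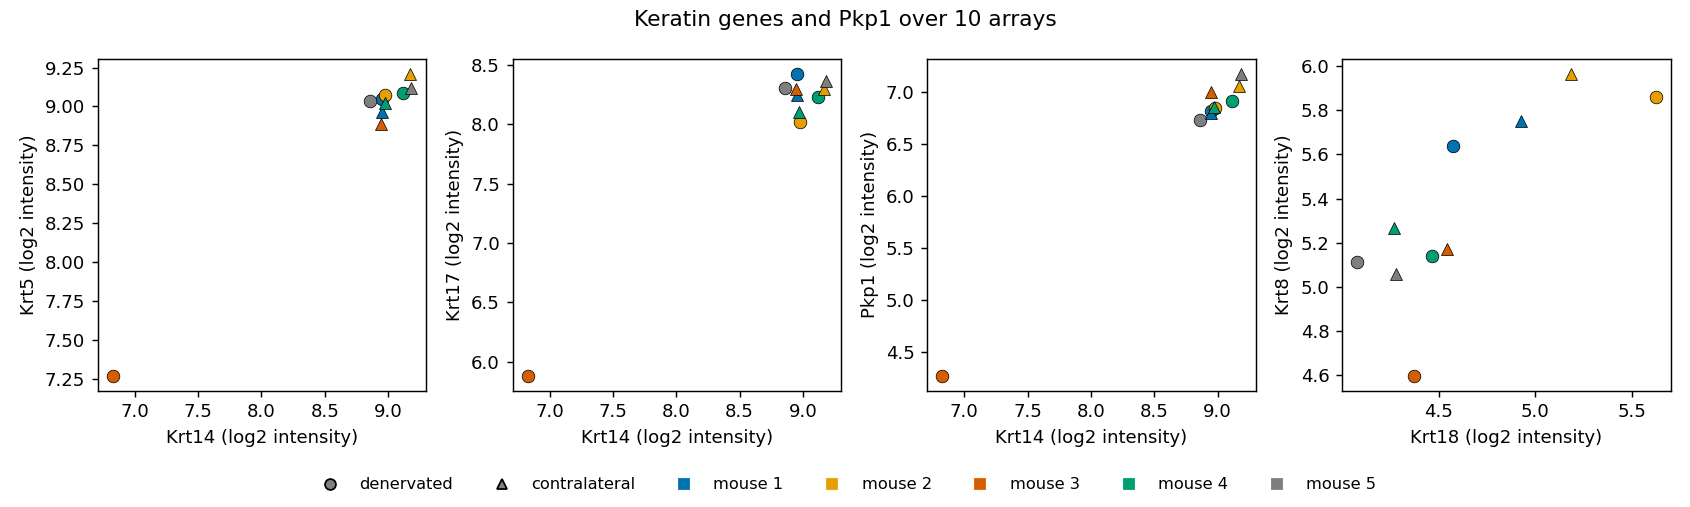
Log2 intensity of pairs of genes on the 10 arrays (circles denervated, triangles contralateral, colour by mouse). In the first 3 panels denervated array 3 lies alone at the lower left, with Krt14 at 6.83; in the panel of Krt8 against Krt18 both incisors of mouse 2 lie at the upper right, with Krt18 at 5.62 in the denervated and 5.18 in the contralateral incisor.

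The pattern of Krt14 over the arrays was compared with that of the other genes with a mean above 2. Symbols of clones and predicted genes were passed over. Among the rest, the 6 with the highest Pearson correlation over 10 arrays were Pkp1 (0.996), Kcnk1 (0.995), Bnc1 (0.995), Lama3 (0.994), Krt5 (0.993) and Chst1 (0.993). Pkp1 encodes a plakophilin of desmosomes, Bnc1 a zinc finger protein of basal keratinocytes, Lama3 a laminin chain of the epithelial basement membrane, Kcnk1 a potassium channel and Chst1 a sulfotransferase. Their Spearman correlations with Krt14 were 0.79, 0.70, 0.67, 0.65, 0.85 and 0.62 in that order. Without denervated array 3 Pearson's values were 0.83, 0.79, 0.77, 0.72, 0.71 and 0.65. Leaving out the 2 arrays farthest from the Krt14 median, denervated array 3 and contralateral array 5, they were 0.75, 0.68, 0.66, 0.62, 0.70 and 0.57. In mouse 3 Lama3 differed by -6.46 and Bnc1 by -5.59, against -2.12 for Krt14; Bnc1 was at 0.80 in that incisor, near the low end.

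Keratins are anchored to desmosomes and hemidesmosomes, and the genes of these junctions were low in the same incisor. Of 18 genes of keratin-binding junction proteins 17 were measured. All 17 were lower in the denervated incisor of mouse 3, as were 7274 of 18193 genes. Their median difference there was -1.16, and 10 of them had a difference of -1 or below, as 1.13% of all genes did. Their medians were -0.04, -0.22, 0.18 and -0.15 in mice 1, 2, 4 and 5. In mouse 3 Pkp1 differed by -2.72, Evpl, which encodes the cornified envelope protein envoplakin, by -2.19, the hemidesmosome collagen gene Col17a1 by -1.91, the integrin gene Itgb4 by -1.71 and the desmoplakin gene Dsp by -1.31. Plec, which encodes plectin and is made in many cell types, differed by -0.28 there. Over the 10 arrays 0 of 17 passed limma's test over all genes. The members with the smallest p were Ppl, the periplakin gene, at -0.53 ± 0.23 (SE; limma adjusted p 0.790), and Dsp at -0.37 ± 0.21 (limma adjusted p 0.796); both had the lower value in the denervated incisor in 4 of 5 mice. Without denervated array 3 Ppl differed by -0.32 and Dsp by -0.15.

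Transcription factors of epithelium ranged from low to near level in mouse 3. Of 18 factors 16 were measured, with a median of -0.22 in mouse 3 and 12 of 16 below 0, against 7274 of 18193 genes. Sox21, a factor of enamel-forming epithelium, differed by -3.46 there and Trp63, which encodes the p63 factor of basal cells, by -1.40. Tfap2a, an AP-2 factor active in epithelium and neural crest, differed by 0.02 and Sox2, a factor of epithelial stem cells, by -0.23. Over the 10 arrays 0 of 16 passed limma's test. Grhl2, a grainyhead-like factor of epithelium, had the smallest p, with a difference of -0.32 ± 0.13 (SE; limma adjusted p 0.790) and -0.21 without denervated array 3. Elf3, near the low end of the scale, differed by -0.18 ± 0.09, and by -0.22 without that array.

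Marker genes of dental epithelium ran from low to higher in mouse 3, and the keratins lay within that span. Of 17 markers 15 were below 0 there, against 7274 of 18193 genes. The enamel matrix genes Enam, Amelx and Ambn differed by -8.77, -4.60 and -3.43, Cldn1, a tight junction gene, by -2.47, Cdh1 by -1.91 and the signalling gene Shh by -1.15. Enam was at 0.82 in that incisor, near the low end, where the value may be background, so -8.77 is its measured difference and not a resolved size. Klk4, an enamel protease gene, differed by 0.39. Epcam differed by -0.35, Mmp20, another enamel protease gene, by -0.39 and Sostdc1, a secreted inhibitor, by -0.25, beside -0.57 for Krt8 and -0.17 for Krt18. Over the 10 arrays 0 of 17 markers passed limma's test. Mmp20 had the smallest p with -0.33 ± 0.16 (SE; limma adjusted p 0.790), followed by Shh with -0.33 ± 0.19 (limma adjusted p 0.796). Mmp20 differed by -0.32 and Shh by -0.14 without denervated array 3. Shh was lower in the denervated incisor of 5 of 5 mice, as 3.8% of all genes were, and Mmp20 of 4 of 5. The mean log2 level of the 15 markers with a mean above 2 ranged over 6.34 to 8.90 in denervated and 8.39 to 8.999 in contralateral incisors, and over 8.58 to 8.90 in denervated incisors without array 3. These markers were low in the same incisor as the basal-type keratins, and their part in the keratin differences was not tested.

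**Figure D5:**
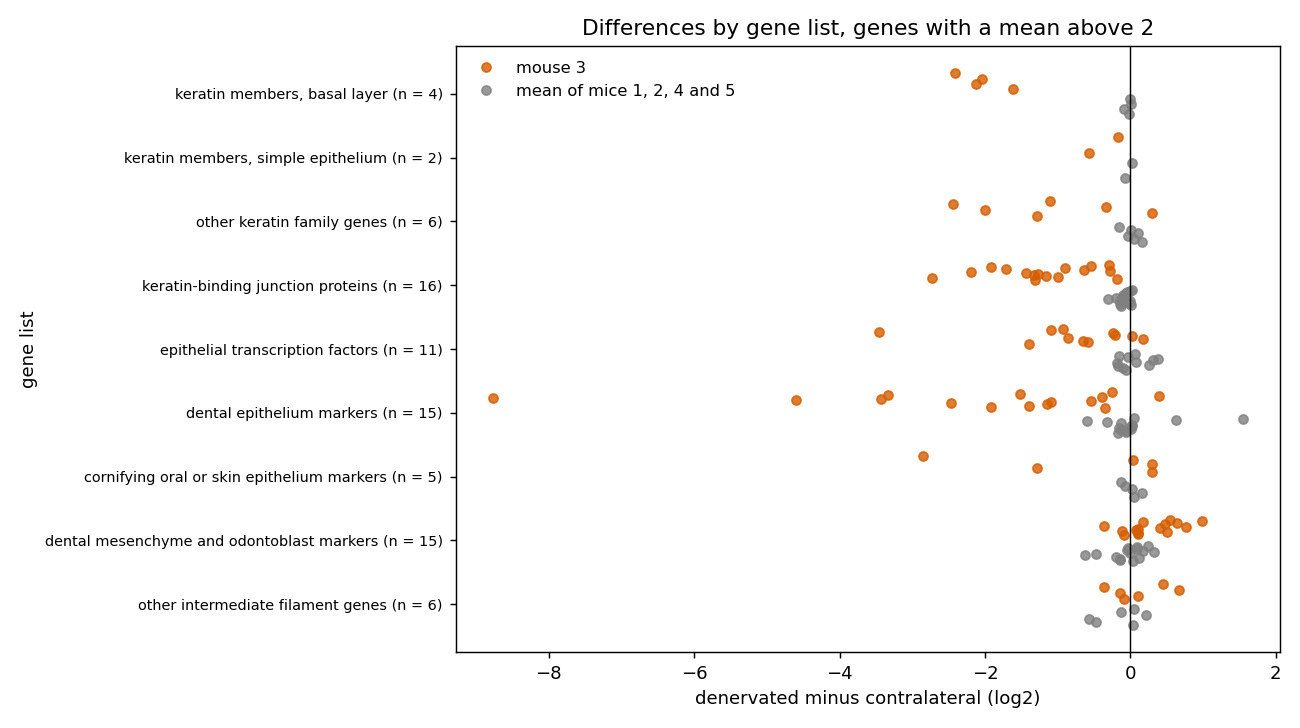
Denervated minus contralateral difference (log2) of each gene with a mean above 2 in 9 gene lists, for mouse 3 (upper row of each list) and as the mean of the other 4 mice (lower row). In mouse 3 the basal-type keratins lie between -2.41 and -1.61 and the dental epithelium markers reach -8.77 (Enam, near the low end in the denervated incisor), while dental mesenchyme markers lie between -0.36 and 0.99.

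Mesenchymal genes on the same array were not low. The 16 markers of dental mesenchyme and odontoblasts had a median of 0.17 in mouse 3, with 3 of 16 below 0. There the median of all genes was 0.07, and 7274 of 18193 were below 0. The 15 of them with a mean above 2 had a median of 0.17 and 3 below 0. Among all genes with a mean above 2 the median was 0.16, and 2945 of 10780 were below 0. Vim differed by -0.08 there, the collagen gene Col1a1 by 0.11 and the dentin gene Dspp by -0.11. The mean log2 level of 15 such markers was 9.03 on denervated array 3, and ranged over 8.55 to 8.77 on the other denervated arrays and 8.67 to 8.79 on the contralateral arrays. None of the 16 passed limma's test over the 10 arrays. Pax9, a tooth mesenchyme factor, differed by 0.41 ± 0.16 (SE) and Col3a1 by 0.19 ± 0.08 (limma adjusted p 0.790 for each). Both, named for the smallest p of the list, were higher in the denervated incisor of 5 of 5 mice, as 6.58% of all genes were. By limma at an unadjusted p under 0.05, 2 of the 16 were lower and 2 higher, against 383 and 746 of 18193 genes. Without denervated array 3 the median of the 16 was -0.02, with 9 below 0, as were 45.5% of all genes. Pax9 differed by 0.40 and Col3a1 by 0.14 without denervated array 3. Among 14 other intermediate filament genes the median in mouse 3 was -0.08, and 0 of 14 passed. Nes, the nestin gene of odontoblasts and also 1 of the 16 mesenchymal markers, had the smallest p, with -0.35 ± 0.15. Prph, the peripherin gene of neurons, differed by -0.22 ± 0.11. Without denervated array 3 Nes differed by -0.45 and Prph by -0.19.

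Most other keratins were near the low end of the scale. Of 46 further family members 39 were measured, and 6 of these had a mean above 2: Krt6a, Krt10, Krt27, Krt42, Krt73 and Krt80. In mouse 3 Krt73 differed by -2.45, Krt27 by -2.001, Krt6a by -1.28 and Krt80 by -1.10, while Krt10 differed by 0.30 and Krt42 by -0.34. Krt27 and Krt73 are known as keratins of the inner root sheath of hair, and Krt6a as a keratin of appendages and wounded epidermis. Krt6a also varied in the other mice, with 0.99, -0.37, 0.68 and -0.64 in mice 1, 2, 4 and 5. Krt75, a keratin of hair follicles that has also been reported in enamel, averaged 1.65 ± 0.39 in denervated and 1.59 ± 0.39 in contralateral incisors, near the low end. Over the 10 arrays 0 of 39 passed limma's test. The smallest p values belonged to Krt72 at -0.20 ± 0.08 and Krt12 at -0.14 ± 0.08, both with means under 2 (without denervated array 3, -0.20 and -0.16). Krt72 was lower in the denervated incisor of 5 of 5 mice, as 3.8% of all genes were, and Krt12 of 4 of 5. Of the markers of cornifying epithelium 0 of 18 passed, with Dsg1a, a desmoglein gene, at -0.68 ± 0.52 and Calml3 at -0.15 ± 0.12. Dsg1a differed by -2.85 in mouse 3, the lowest value of the list. The 18 had a median of -0.16 there, with 12 below 0, against 7274 of 18193 genes. The 5 with a mean above 2 had a median of 0.04, with 2 below 0, against 2945 of 10780 genes. Leaving out denervated array 3 gave -0.14 for Dsg1a and -0.08 for Calml3.

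Neighbouring genes were read beside the members. In the RefSeq gene table Krt15 and Krt19 are neighbouring protein-coding genes in the type I cluster; Krt19 was at the low end on every array, so the neighbours cannot be compared. Krt6a, next to Krt5, differed by -1.28 in mouse 3, where Krt5 differed by -1.61. Krt16, which lies between Krt14 and Krt17, averaged 0.83 ± 0.22 in denervated and 0.92 ± 0.22 in contralateral incisors, near the low end, and differed by -0.54 in mouse 3. Krt8 and Krt18 are neighbours as well, although 1 is type II and the other type I, and Eif4b, a translation factor gene on the far side of Krt18, differed by 0.15 in mouse 3. The start regions of Krt5, Krt8 and Krt18 are shown because they contrast a basal-type member, low in mouse 3, with the neighbouring simple-type pair that varied together. They are taken from RefSeq (GRCm38.p6), from 250 bases before to 50 after the annotated gene start, 5′ to 3′ on the strand of the gene, with motif matches in capitals. Krt5 lies at chr15:101712856-101713155 on the minus strand, Krt8 at chr15:102004293-102004592 on the minus strand and Krt18 at chr15:102027966-102028265 on the plus strand.
Krt5: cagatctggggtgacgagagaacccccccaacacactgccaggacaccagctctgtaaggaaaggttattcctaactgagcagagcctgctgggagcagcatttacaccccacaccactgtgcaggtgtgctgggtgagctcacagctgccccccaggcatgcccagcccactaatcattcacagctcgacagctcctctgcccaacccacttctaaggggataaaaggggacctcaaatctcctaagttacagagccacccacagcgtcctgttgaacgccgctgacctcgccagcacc
Krt8: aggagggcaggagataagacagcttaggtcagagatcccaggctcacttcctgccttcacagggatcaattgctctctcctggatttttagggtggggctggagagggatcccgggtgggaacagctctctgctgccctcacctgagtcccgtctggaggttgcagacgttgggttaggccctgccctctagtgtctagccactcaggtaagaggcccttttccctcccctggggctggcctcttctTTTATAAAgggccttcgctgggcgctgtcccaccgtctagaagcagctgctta
Krt18: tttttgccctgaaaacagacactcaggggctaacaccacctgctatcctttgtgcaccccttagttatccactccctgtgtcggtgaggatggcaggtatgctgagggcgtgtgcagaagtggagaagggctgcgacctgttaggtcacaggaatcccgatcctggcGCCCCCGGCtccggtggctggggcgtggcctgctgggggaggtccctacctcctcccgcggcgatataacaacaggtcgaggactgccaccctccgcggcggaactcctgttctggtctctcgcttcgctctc

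The windows were searched on both strands for the TATA box TATAAA, the CCAAT box (spelled as named), the Sp1 box GGGCGG, the AP-1 site TGANTCA and the AP-2 site GCCNNNGGC. The capitals in Krt8 are a pair of overlapping TATAAA matches on opposite strands, from position 248 to position 255 of 300. The window has 250 bases before the annotated gene start, so the pair lies across that start. The capitals in Krt18 are 1 AP-2 match from position 168 to 176. The 5 motifs had no match in the Krt5 window. Of 32851 windows of this length 13.6% hold the TATA box, 37.4% the CCAAT box, 35.7% the Sp1 box, 7.81% the AP-1 site and 16.6% the AP-2 site. A match describes the letters of the window and shows no binding. The Krt7 window, not printed, has 4 Sp1 and 2 AP-2 matches, the first of each overlapping. The table's Krt14 window lies inside the annotated gene, 1480 bases from its start, and is not printed; Krt15, Krt17 and Krt19 are not shown. The GC content was 57.7% in the Krt5 window, 58.0% in that of Krt8 and 61.3% in that of Krt18.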

How the data were processed

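The authors deposited 1 normalized value per probe set and array, read here as log2 intensity from its range. Per the submitters' processing notes they were made with RMA; its version and settings are not given in the sources used here. The range is -0.16 to 13.2. Without detection calls, values near the low end may be background. The number of arrays limits the precision.

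Of 45101 probe sets 64 controls were left out. Among the rest, 34945 name 1 gene, 932 several and 9160 none, giving 18193 genes by the probe set with the highest mean. All 8 keratins matched a RefSeq gene of the same symbol by Entrez identifier. Groups were compared with limma 3.58.1 (R 4.3.3; lmFit and eBayes, Benjamini-Hochberg, adjusted p 0.05), tested on simulated data. Litters and days of handling are not stated.

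The series text says both incisors of 5 mice were used, but the labels do not say that equal numbers mark a mouse. After subtracting group means, arrays of equal number correlated at 0.18 to 0.57 (5 pairs) and the 20 other pairs at -0.41 to 0.22. Of the 5 denervated arrays, 4 correlated best with the contralateral array of their own number. Equal numbers were therefore taken as 1 mouse, which is an inference. The mouse entered as a block in an alternative.

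The keratins, gene lists and tests were chosen with earlier results of these data known. Named genes are the 8 keratins, a set list and the 2 of each list with the smallest p where none passed. The 6 most like Krt14 by Pearson correlation, with symbols of clones and predicted genes passed over, are named as well. Further genes named with values in mouse 3 or as neighbours were chosen after their values were seen. Alternatives changed the probe set rule, scaling, filter, variance prior, array weights and the arrays used. Some listed genes were not analysed here.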

Additional observations from a re-analysis of the deposited data

Results flagged for a closer look

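Of 16 groups of 5 values (8 keratins on 2 sides) 4 have a lowest value that stands off from the rest and 1 a highest value, by Dixon's criterion of 0.71 of the group's range; chance gives about 1 such value in 20 groups, and the 8 genes share the same arrays. The low values all belong to denervated array 3: Krt5 at 7.27, Krt14 at 6.83, Krt15 at 1.51 and Krt17 at 5.88, with gaps of 0.97, 0.89, 0.77 and 0.84 of the group's range. The high value is Krt15 at 5.38 on contralateral array 5, with a gap of 0.87 of the range. Krt18 on denervated array 2, at 5.62, had a gap of 0.68 and was not past the criterion.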

How the results depend on the processing

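Under each of the 21 alternatives 0 keratins and 0 genes passed limma's test, with smallest adjusted p of 0.573 for a keratin, reached with the replicate block, and 0.234 for any gene, also with the replicate block; genes with an unadjusted p under 0.05 numbered 1129, 1805 with the block, which changed no call, and 2411 with every one of 45037 probe sets tested. Leaving out 1 array at a time put the number of keratins with a lower mean between 4 and 7 and their median difference between -0.38 and 0.008; the value of 4 came without denervated array 3, and 4 were also lower without denervated arrays 2 and 3. The ranges with 1 array left out were -0.43 to 0.021 for Krt5, -0.61 to 0.13 for Krt15, -0.27 to 0.12 for Krt18 and -0.14 to 0.010 for Krt7. Krt14 and Krt8 stayed below 0 under all 21 alternatives, Krt14 between -0.64 and -0.07. Krt19 was -0.065 with arrays centred on their median and -0.019 with array weights. The following were chosen after seeing the data. Without both arrays of mouse 3, with or without the block, 5 of 8 keratins had a lower mean, with a median of -0.013. In that setting Krt8 was -0.073, Krt15 0.0060 and Krt18 0.020. Without denervated arrays 2 and 3, Krt5 was 0.016, Krt15 0.25 and Krt17 0.059. Signals near the low end limit what can be said of Krt19 and Krt7. The cause of these moves was not tested beyond the arrays named.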
